A study of Mus musculus with 8 samples.

Results

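The 10 enzymes studied here build and turn over ceramide, and their RNA was followed in the livers of diabetic mice given AF1 peptide or control. The 10 genes were taken by symbol as the steps of the pathway (Sptlc1, Sptlc2, Kdsr, Cers2, Cers5, Cers6, Degs1, Asah1, Sgms1 and Smpd1), and all 10 were found among the 21532 genes of the deposited table. All 8 animals were male db/db mice on a C57BL/6J background. These mice carry an inherited leptin receptor defect and become obese and diabetic, so the controls carry the same defect and no lean mice were compared. AF1 peptide is a synthetic peptide derived from the estrogen receptor ERα fused to a TAT sequence, which lets it enter cells. It was given by retro-orbital injection at 5 mg/kg body weight, 2 times a week for 5 weeks from 8 weeks of age, in 4 mice. The other 4 mice received the control at the same dose, by the same route and on the same schedule. What the control injection contained is not given in the sources used here. Frozen whole liver was used, with 1 RNA-Seq library per mouse and no pooling. In whole tissue, fewer cells of a type and less RNA per cell cannot be told apart.

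Ceramide is made at the endoplasmic reticulum from serine and palmitoyl-CoA. Serine palmitoyltransferase joins these substrates, a reductase and a ceramide synthase follow, and a desaturase adds the double bond that turns dihydroceramide into ceramide. Ceramide can then be hydrolysed to sphingosine by ceramidases, converted to sphingomyelin, or released again from sphingomyelin by sphingomyelinases. In the liver of obese animals ceramide is known as a lipid that interferes with insulin signalling to AKT, and the acyl chain set by the ceramide synthase is known to matter for this effect.

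No change in the RNA of the 10 enzymes was detected. Values are normalized counts, which are reads divided by 1 size factor per library. A gene was called when the two-sided limma test on log2(normalized count + 1) gave an unadjusted p under 0.05, the threshold of the study. Beside it, single values were compared by a two-sided exact permutation test over the 8 mice, whose smallest possible value is 0.0286. None of the 10 genes was called and none had groups that did not overlap, where the share of all 15989 tested genes called was 6.19% and the share without overlap was 3.9%. By Benjamini-Hochberg adjusted p under 0.05, limma called 0 of all tested genes (0%), with 990 genes at an unadjusted p under 0.05. At the same adjusted threshold edgeR called 0 and DESeq2 called 3 genes (0.0188%). Of the 10 enzymes 6 had a log2 fold change below 0 (7 under TMM scaling and 9 with equal library totals, a scaling that puts 68.9% of all tested genes below 0), with a median of -0.044, and over all tested genes the share below 0 was 51.8%, with a median of -0.0083. Without AF1 peptide replicate 1, 7 of the 10 were below 0 and none was called. Kdsr, Asah1 and both subunits of serine palmitoyltransferase had the most negative values, and the groups overlapped in each. All 10 genes passed the filter on low values, a mean normalized count of at least 10.

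**Figure D1:**
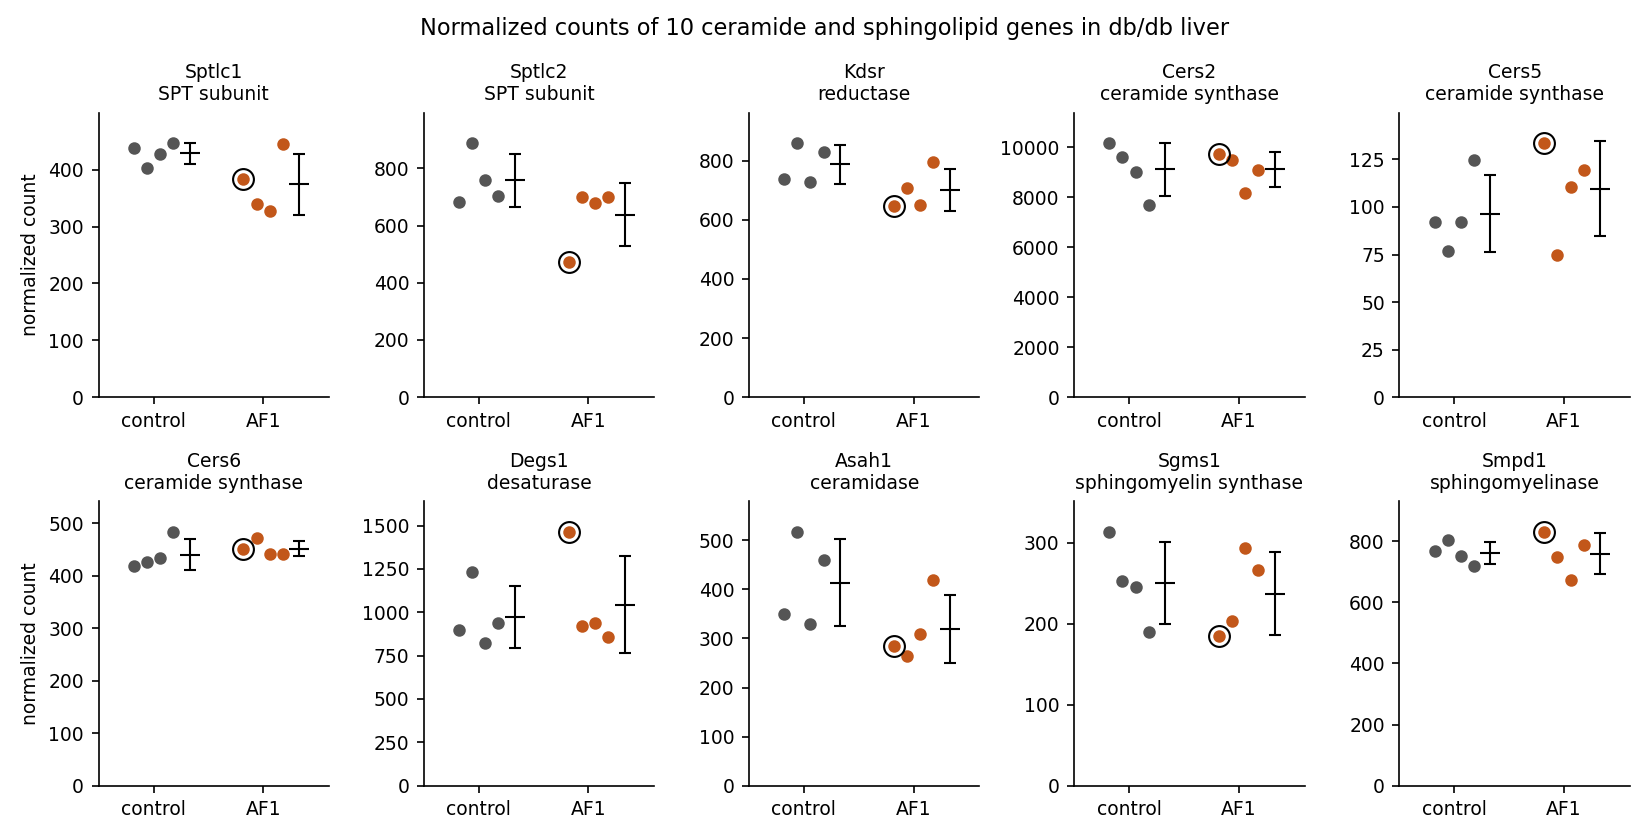
Normalized counts of the 10 enzymes in each of the 8 mice, 1 panel per gene, with control and AF1 peptide groups side by side, each point 1 mouse, the bar the group mean and the error bar the SD; AF1 peptide replicate 1 is circled. The groups overlapped in all 10 panels, and the circled mouse was the lowest of all 8 for Sptlc2, Kdsr and Sgms1 and the highest for Cers5, Degs1 and Smpd1.

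The libraries held 35260283 to 45117528 reads in control mice and 23031880 to 43978158 in AF1 peptide mice (two-sided exact permutation test, p = 0.686). A single library stood apart: AF1 peptide replicate 1 lay at 74.25 on the first principal component, which carried 39.3% of the variance, and the other 7 mice lay between -21.8 and 2.334. The summed normalized count of 8 hepatocyte markers was 1640193 in this library, 2086896 to 2510256 in the other AF1 peptide mice and 2408301 to 2514149 in controls, so markers of the labelled tissue were abundant in all 8. The sum is carried by Alb, Ttr and Apoa1, and the markers did not move as one: replicate 1 was the lowest of all mice for 4 of the 8, and the highest for the other 4 (Tat, Cps1, Hnf4a and Asgr1), with Tat at 68707 against 6311 to 23826 in the other mice. Between the groups, 5 of the 8 hepatocyte markers had a log2 fold change below 0 and none was called. Without replicate 1 all 8 were below 0 and Tat was called lower. For the 9 Kupffer cell and macrophage markers the sum was 2805 in replicate 1, 6699 to 7323 in the other AF1 peptide mice and 6160 to 7704 in controls. Mitochondrial genes took 21.06% of the reads in replicate 1, 34.69 to 38.17% in the other AF1 peptide mice and 22.63 to 34.69% in controls. The part of these differences in the results was not tested, and differences between the groups are given with and without this library.

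Serine palmitoyltransferase, the first and rate-limiting enzyme of the pathway, needs the subunits encoded by Sptlc1 and Sptlc2. Sptlc1 stood at 438.4, 402.8, 428.1 and 446.4 in control replicates 1 to 4 and at 384.5, 339.7, 327.9 and 446.3 in AF1 peptide replicates 1 to 4. In the AF1 peptide group 3 mice were below every control, and replicate 4 was level with the highest control. The means were 428.9 ± 19.0 and 374.6 ± 53.7 (SD, n = 4 each), a log2 fold change of -0.20 (SE 0.12; 95% interval -0.47 to 0.056) with limma's Benjamini-Hochberg adjusted p = 0.77 (exact permutation p = 0.114). Without AF1 peptide replicate 1 the log2 fold change was -0.22 and the gene was not called. Without AF1 peptide replicate 4, the mouse level with the controls, it was -0.29 and passed the unadjusted limma threshold, while the lowest Benjamini-Hochberg adjusted p over its 20 alternatives was 0.57. In that fit 3.65% of all tested genes were called lower.

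Sptlc2, the second subunit, was 681.5, 887.3, 758.8 and 705.1 in controls and 474.0, 701.4, 679.6 and 698.9 in AF1 peptide mice. Replicate 1 was far below the rest, and replicates 2 to 4 lay within or just below the control range. The means were 758.2 ± 91.9 and 638.5 ± 110 (SD, n = 4 each), and the log2 fold change of -0.26 (SE 0.15; 95% interval -0.58 to 0.065) gave limma's Benjamini-Hochberg adjusted p = 0.766 (exact permutation p = 0.114). Without replicate 1 the AF1 peptide mean was 693.3 ± 11.9 and the log2 fold change -0.12, also not called. Scaling every library to the same total gave a log2 fold change of -0.35, which passed the threshold, where 4.81% of all tested genes were called lower and the median of all genes stood at -0.10.

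Kdsr reduces the keto product of serine palmitoyltransferase to sphinganine. Its normalized counts were 737.5, 857.7, 726.4 and 829.1 in controls and 645.8, 706.8, 650.0 and 796.2 in AF1 peptide mice. As for Sptlc1, replicates 1 to 3 were below every control and replicate 4 was inside the control range. The means of 787.7 ± 65.5 and 699.7 ± 70.1 (SD, n = 4 each) gave a log2 fold change of -0.17 (SE 0.11; 95% interval -0.41 to 0.062), with limma's Benjamini-Hochberg adjusted p = 0.774 (exact permutation p = 0.114). Without replicate 1 the value was -0.14, and none of the 20 alternatives took it past the threshold.

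Ceramide synthases attach the fatty acyl chain, and their family members differ in the chain length they prefer. Cers2, which makes very-long-chain ceramides and is the dominant synthase of liver, had normalized counts of 10143, 9616, 8999 and 7664 in controls and 9727, 9468, 8146 and 9085 in AF1 peptide mice. All AF1 peptide values were inside the control range, and the means of 9106 ± 1070 and 9107 ± 693 (SD, n = 4 each) were nearly the same. The log2 fold change was 0.0047 (SE 0.12; 95% interval -0.26 to 0.27; exact permutation p = 0.914; limma adjusted p = 0.996), with an interval that reaches about as far above 0 as below it. Without replicate 1 it was -0.028. In the annotation, 5.96% of the exon length of Cers2 lies over genes of the opposite strand, and whether reads were counted by strand is not given in the sources used here.

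Cers6 and Cers5 encode the synthases that prefer palmitoyl-CoA. Cers6 had the narrowest relative spread among AF1 peptide mice, at 449.8, 471.2, 440.7 and 441.7, beside 417.8, 426.4, 433.5 and 483.2 in controls. Its means were 440.2 ± 29.4 in controls and 450.9 ± 14.2 in AF1 peptide mice (SD, n = 4 each), with a log2 fold change of 0.036 (SE 0.09; 95% interval -0.17 to 0.24; exact permutation p = 0.486; limma adjusted p = 0.946). Cers5 was the lowest of the 10 in normalized count, with 41 to 149 reads per mouse. It was 92.3, 76.8, 91.9 and 124.8 in controls and 133.4, 74.9, 110.4 and 119.4 in AF1 peptide mice, so that both ends of the range of all 8 mice fell in the AF1 peptide group. The means of 96.44 ± 20.2 and 109.5 ± 25 (SD, n = 4 each) gave a log2 fold change of 0.17 (SE 0.21; 95% interval -0.30 to 0.65; exact permutation p = 0.486; limma adjusted p = 0.87). Without replicate 1 the log2 fold changes were 0.037 for Cers6 and 0.068 for Cers5.

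Degs1 encodes the desaturase that turns dihydroceramide into ceramide. It was 897.4, 1231, 822.6 and 940.5 in controls and 1463, 920.5, 936.6 and 856.8 in AF1 peptide mice. Replicate 1 was the highest of all 8, and the other AF1 peptide mice were all inside the control range. The means were 972.9 ± 179 and 1044 ± 281 (SD, n = 4 each), with a log2 fold change of 0.085 (SE 0.18; 95% interval -0.32 to 0.49; exact permutation p = 0.629; limma adjusted p = 0.934). The direction rested on replicate 1: without it the mean of the AF1 peptide mice was 904.7 ± 42.2 and the log2 fold change -0.089.

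Asah1 encodes the lysosomal acid ceramidase, which splits ceramide into sphingosine and a fatty acid, and it had the most negative log2 fold change of the 10. Its normalized counts were 349.4, 517.0, 329.7 and 458.9 in controls and 284.6, 264.8, 308.1 and 418.8 in AF1 peptide mice. Replicates 1 to 3 were below every control and replicate 4 was above 2 of the 4 controls. Asah1 was also the enzyme with the widest relative spread among controls, with a coefficient of variation of 21.6% where Sptlc1 had 4.42%. The means of 413.8 ± 89.3 and 319.1 ± 68.8 (SD, n = 4 each) gave a log2 fold change of -0.37 (SE 0.18; 95% interval -0.78 to 0.036), with limma's Benjamini-Hochberg adjusted p = 0.763 (exact permutation p = 0.143). It was -0.32 without AF1 peptide replicate 1, and not called. Among the fits that left out 1 mouse, the threshold was passed without AF1 peptide replicate 4 (-0.51) and without control replicate 3 (-0.47), where 3.65% and 3.35% of all tested genes were called lower. The lowest adjusted p over its 20 alternatives was 0.58 (Benjamini-Hochberg, limma or the count tests). Of the Kupffer cell and macrophage markers, 8 of 9 had a log2 fold change below 0 and Adgre1 was called lower, but without AF1 peptide replicate 1 it was 4 of 9 and none was called; their part in the Asah1 values was not tested.

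Sphingomyelin is formed from ceramide by sphingomyelin synthases and split by sphingomyelinases. Sgms1, a Golgi sphingomyelin synthase, was 313.1, 253.1, 245.4 and 190.1 in controls and 184.8, 202.7, 293.3 and 266.3 in AF1 peptide mice, and the groups covered nearly the same range. The means were 250.4 ± 50.4 and 236.8 ± 51.4 (SD, n = 4 each), with a log2 fold change of -0.084 (SE 0.19; 95% interval -0.50 to 0.34; exact permutation p = 0.714; limma adjusted p = 0.936), and 0.026 without replicate 1. Smpd1, the lysosomal acid sphingomyelinase, was 769.7, 803.6, 751.3 and 717.7 in controls and 830.5, 747.0, 672.2 and 788.8 in AF1 peptide mice. Its means of 760.6 ± 35.9 and 759.6 ± 67.5 (SD, n = 4 each) were nearly level, with a log2 fold change of -0.0049 (SE 0.10; 95% interval -0.22 to 0.21; exact permutation p = 0.971; limma adjusted p = 0.994) and -0.049 without replicate 1.

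**Figure D2:**
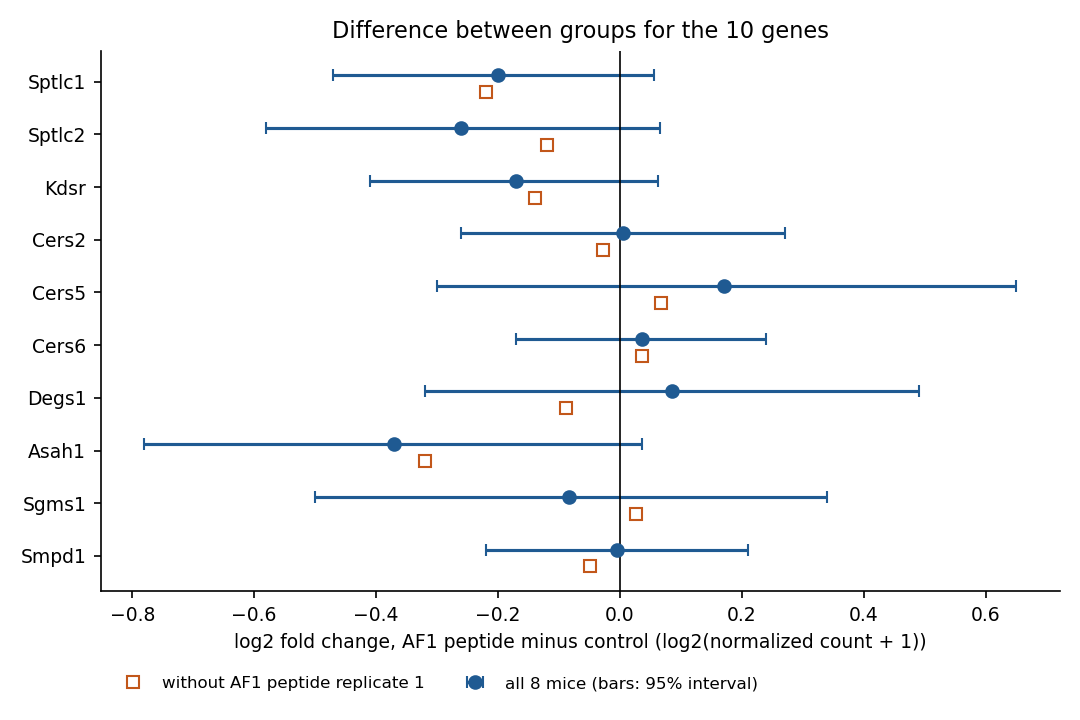
Log2 fold change (AF1 peptide minus control, on log2(normalized count + 1)) of the 10 enzymes, with its 95% limma interval for all 8 mice. The fit without AF1 peptide replicate 1 is shown as open squares with no interval. Every interval of the fit over all mice includes 0, and the values run from -0.37 for Asah1 to 0.17 for Cers5.

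The enzymes differed far more from each other in level than between the groups. Levels were compared per kb of exon, as normalized count per kb over all exons of a gene, with the mean ± SD over all 8 mice. Cers2 stood first at 2477 ± 227, which is 6.36 times Degs1, at 389 ± 85.5. Smpd1 followed at 228 ± 15.0, and every mouse had Cers2, Degs1, Smpd1 and Sptlc1 in that order. Then came Sptlc1 at 113, Asah1 at 108, Kdsr at 91.3 and Sptlc2 at 86.1, whose neighbours in the order overlapped over the 8 mice, and Cers6, at 50.2, was below Sptlc2 in every mouse. Cers5 at 29.1 and Sgms1 at 23.1 came last, with overlapping ranges. When the longest transcript of each gene was used as the length, Kdsr moved above Asah1 and Sgms1 above Cers5, and the ranges of Cers6 and Sgms1 then overlapped. Among all tested genes Cers2 stood at percentile 97.7 of mean normalized count and Cers5 at percentile 33.2, a ranking that is not scaled by length.

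**Figure D3:**
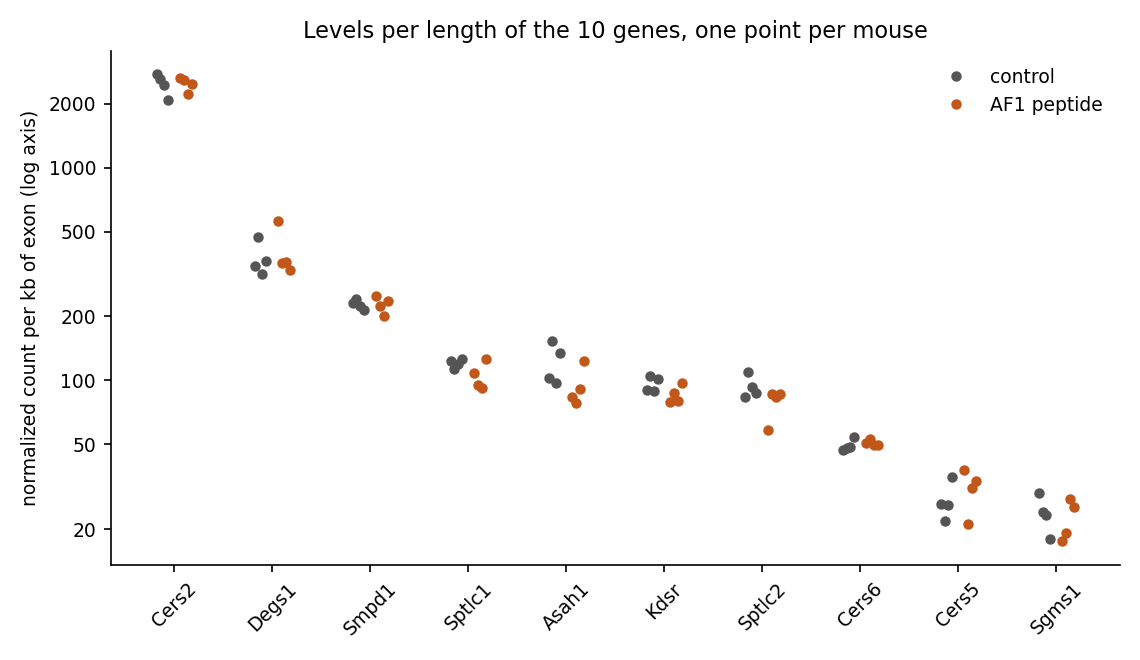
Level of each enzyme as normalized count per kb of exon on a log axis, each point 1 mouse, coloured by group, ordered by mean. Cers2 lies above all others in every mouse, between 2085 and 2759, and Sgms1, the last, lies between 17.5 and 29.7.

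Enzymes of alternative or opposing steps, and the subunits of serine palmitoyltransferase, were set against each other in each mouse. This was done per kb of exon and as a description with no test. Cers2 made up 95.9 to 97.4% of the sum of Cers2, Cers5 and Cers6, with 96.9 ± 0.727% in controls and 96.8 ± 0.298% in AF1 peptide mice (SD, n = 4 each), and also 96.8% without replicate 1. The ratio of Cers2 to the sum of the palmitoyl-preferring synthases was 32.8 ± 6.78 in controls and 30.4 ± 3.07 in AF1 peptide mice (30.6 without replicate 1), and the AF1 peptide mice all lay inside the control range. Sptlc1 to Sptlc2 was 1.31 ± 0.199 and 1.38 ± 0.356 (1.22 without replicate 1), and only replicate 1, at 1.85, was above every control. Cers6 to Cers5 was 1.86 ± 0.276 and 1.73 ± 0.53 (1.86 without replicate 1), with 2 AF1 peptide mice below every control and 1 above. Sgms1 to Smpd1 was 0.104 ± 0.0186 and 0.100 ± 0.0293 (0.11 without replicate 1). Degs1 to Asah1, the step that forms ceramide over the step that splits it in lysosomes, was 3.36, 3.12, 3.26 and 2.68 in controls and 6.73, 4.55, 3.98 and 2.68 in AF1 peptide mice. Replicates 1 to 3 were above every control and replicate 4 was level with the lowest control, so the groups overlapped, at means of 3.11 ± 0.300 and 4.48 ± 1.69. Without replicate 1 the AF1 peptide mean was 3.73 ± 0.959, and the ratio of the group means went from 1.44 to 1.2.

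**Figure D4:**
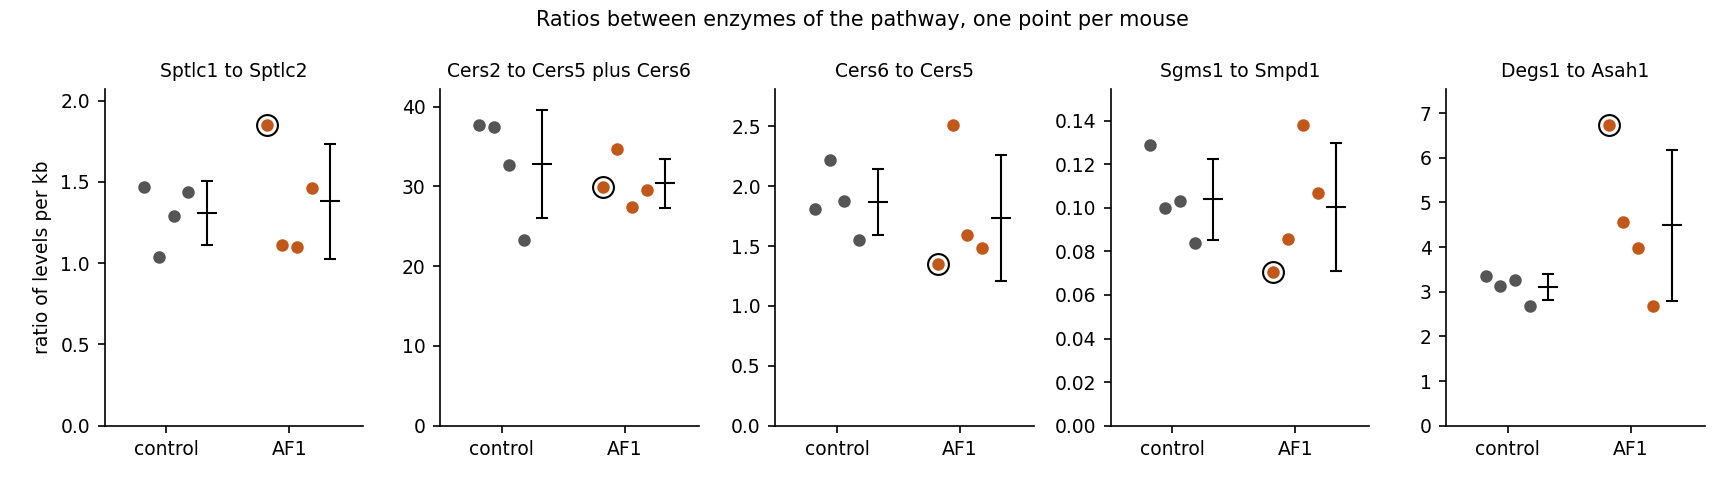
Ratios of enzymes per mouse from levels per kb of exon, 1 panel per ratio, each point 1 mouse, with the group mean and SD; AF1 peptide replicate 1 is circled. The groups overlapped in each ratio; for Degs1 to Asah1, 3 AF1 peptide mice lay above the highest control, 3.36.

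The rest of the pathway was taken from 11 lists by role, which hold 71 further genes, 65 of them in the table and 61 tested. Of these 61, limma called 2 higher and 4 lower at an unadjusted p under 0.05, where the background was 3.16% of tested genes higher and 3.03% lower. None passed after adjustment. The median log2 fold change of the 61 was -0.064, with 37 below 0. Without AF1 peptide replicate 1, 1 was called higher and 7 lower of 62 tested, where 4.58% and 5.45% of all tested genes were called, and 36 were below 0.

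The regulators and small subunit of serine palmitoyltransferase were all below 0 in log2 fold change, as were Sptlc1 and Sptlc2. So 6 of 6 tested genes of the complex were below 0 with a median of -0.23, none of them called. Over all tested genes 51.8% were below 0, and Sptssa, at -0.047, was near 0. Other short lists went both ways. Below 0 were 3 of 3 genes for sphingomyelin synthesis and 4 of 4 transfer proteins, but 2 of 7 for ceramide formation and 2 of 8 for sphingosine 1-phosphate and ceramide 1-phosphate. All 6 were also below 0 under TMM scaling, with equal library totals, where Sptlc2 was called, and without replicate 1. In these fits 53.1%, 68.9% and 50.7% of all tested genes were below 0. The ORMDL proteins restrain serine palmitoyltransferase when ceramide is plentiful. Ormdl2 was at -0.45 (limma's Benjamini-Hochberg adjusted p = 0.763), Ormdl1 at -0.45 and Ormdl3 at -0.18, none of them called. Per kb of exon Ormdl3 was by far the most abundant, at 1321 against 46.5 for Ormdl2 and 20.3 for Ormdl1. Ormdl2 was 83.2, 112.3, 62.7 and 101.3 in controls and 84.9, 49.3, 59.3 and 68.0 in AF1 peptide mice, so replicates 1 and 4 were both above the lowest control. Without replicate 1 Ormdl2 was at -0.58 and Ormdl1 at -0.68, both past the unadjusted threshold. In the annotation 66.7% of the exon length of Ormdl2 lies over Dnajc14 on the opposite strand, so its value is uncertain. Ormdl2 also passed without control replicate 3 (-0.61).

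Among ceramidases, Asah2, the neutral ceramidase of the plasma membrane, had the smallest p of the 61. It was 194.5, 205.8, 168.6 and 210.2 in controls and 151.2, 142.5, 112.9 and 141.4 in AF1 peptide mice, and the groups did not overlap, as in 1.85% of all tested genes on the lower side. The means fell from 194.8 ± 18.7 to 137 ± 16.7 (SD, n = 4 each), a log2 fold change of -0.51 (SE 0.14; 95% interval -0.81 to -0.20) with limma's Benjamini-Hochberg adjusted p = 0.763 (exact permutation p = 0.0286, the smallest this test can give). It stayed under an unadjusted p of 0.05 in 20 of 20 alternatives, with adjusted p of 0.35 at the lowest, and was -0.56 without replicate 1. Acer2 and Acer3, the alkaline ceramidases, were not called.

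Of the genes that hydrolyse sphingomyelin or resemble those that do, Smpdl3a was called lower and Smpdl3b higher. Both encode proteins related to the acid sphingomyelinase. Smpdl3a was 304.9, 417.5, 259.4 and 436.3 in controls and 215.6, 263.0, 234.8 and 284.7 in AF1 peptide mice, with a log2 fold change of -0.48 (SE 0.18, exact permutation p = 0.0857, limma's Benjamini-Hochberg adjusted p = 0.763). Without AF1 peptide replicate 1 both were still called, at -0.41 for Smpdl3a and 0.74 for Smpdl3b. The Smpdl3a call was lost without control replicate 2 (-0.39) or control replicate 4 (-0.37), and with each gene's own variance. Smpdl3b rested on only 12 to 35 reads per mouse and was at 0.71 (SE 0.29, exact permutation p = 0.0571, limma adjusted p = 0.763), from 10.7, 12.8, 13.0 and 16.7 in controls to 20.5, 25.6, 28.8 and 15.6 in AF1 peptide mice. As mice were left out, its call was lost without AF1 peptide replicate 2 (0.64) or 3 (0.58), without control replicate 1 (0.61), 2 (0.69) or 3 (0.70), and it was also lost with equal library totals (0.62). Sgms2, the plasma membrane sphingomyelin synthase, was not called, at -0.19 and -0.29 without replicate 1.

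The glycosphingolipid branch uses ceramide to make glucosylceramide. Ugcg, the glucosylceramide synthase, was 212.6, 280.7, 321.0 and 291.4 in controls and 193.2, 250.2, 175.5 and 224.1 in AF1 peptide mice, a log2 fold change of -0.39 (SE 0.16, exact permutation p = 0.0857, limma adjusted p = 0.763). Gba2, the non-lysosomal glucosylceramidase, was 289.2, 274.7, 342.7 and 320.7 in controls and 381.7, 356.2, 367.4 and 360.0 in AF1 peptide mice, which did not overlap, and its log2 fold change was 0.26 (SE 0.11, exact permutation p = 0.0286, limma adjusted p = 0.763). Non-overlap on the higher side was seen in 2.05% of tested genes. Without AF1 peptide replicate 1 neither passed, at -0.35 for Ugcg and 0.24 for Gba2. The Ugcg call was also lost without AF1 peptide replicate 3 (-0.30), without control replicate 2 (-0.37), 3 (-0.31) or 4 (-0.36), and with each gene's own variance. The Gba2 call was also lost without AF1 peptide replicate 3 (0.26) or 4 (0.27), without control replicate 1 (0.23) or 2 (0.21), and with equal library totals (0.17), a scaling under which no gene of the lists was called higher, beside 0.806% of all tested genes. Equal totals without the mitochondrial genes (0.26) lost the Gba2 call too.

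Of the proteins through which ceramide acts, Ppp2ca, a catalytic subunit of protein phosphatase 2A, was called lower. It was 2176, 2403, 1980 and 2123 in controls and 1977, 1894, 1417 and 1897 in AF1 peptide mice, without overlap, at a log2 fold change of -0.28 (SE 0.12, exact permutation p = 0.0286, limma adjusted p = 0.763), and -0.33 without replicate 1. The call was lost without AF1 peptide replicate 3 (-0.17) and without control replicate 1 (-0.28), 2 (-0.23) or 4 (-0.29). It was also lost when limma used each gene's own variance or no intensity trend. In the annotation 41.3% of the exon length of Ppp2ca overlaps another gene, so its value is less certain. Adipor2, an adiponectin receptor with ceramidase activity, also had groups without overlap (11247, 10244, 9894 and 9800 against 6511, 9689, 8253 and 9778). Non-overlap on the lower side was seen in 1.85% of tested genes. Adipor2 was not called, at -0.28 (limma adjusted p = 0.763) and -0.16 without replicate 1. It is named for that pattern after its values were seen. Non-overlap by itself sets the exact permutation p to 0.0286, so that p adds nothing. Of sphingosine 1-phosphate enzymes, transporters and receptors, none was called, with Spns2, the exporter, at 0.25 and S1pr4 at -0.75 on 5 to 21 reads (0.18 and -0.61 without replicate 1). As mice were left out, Spns2 passed without control replicate 1 (0.34), and S1pr4 passed without AF1 peptide replicate 3 (-1.04) and with equal library totals (-0.83). Of the transfer proteins, Cptp was at -0.17 (-0.19 without replicate 1), and of the ceramide synthases Cers4 was at 0.10 (0.17).

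**Figure D5:**
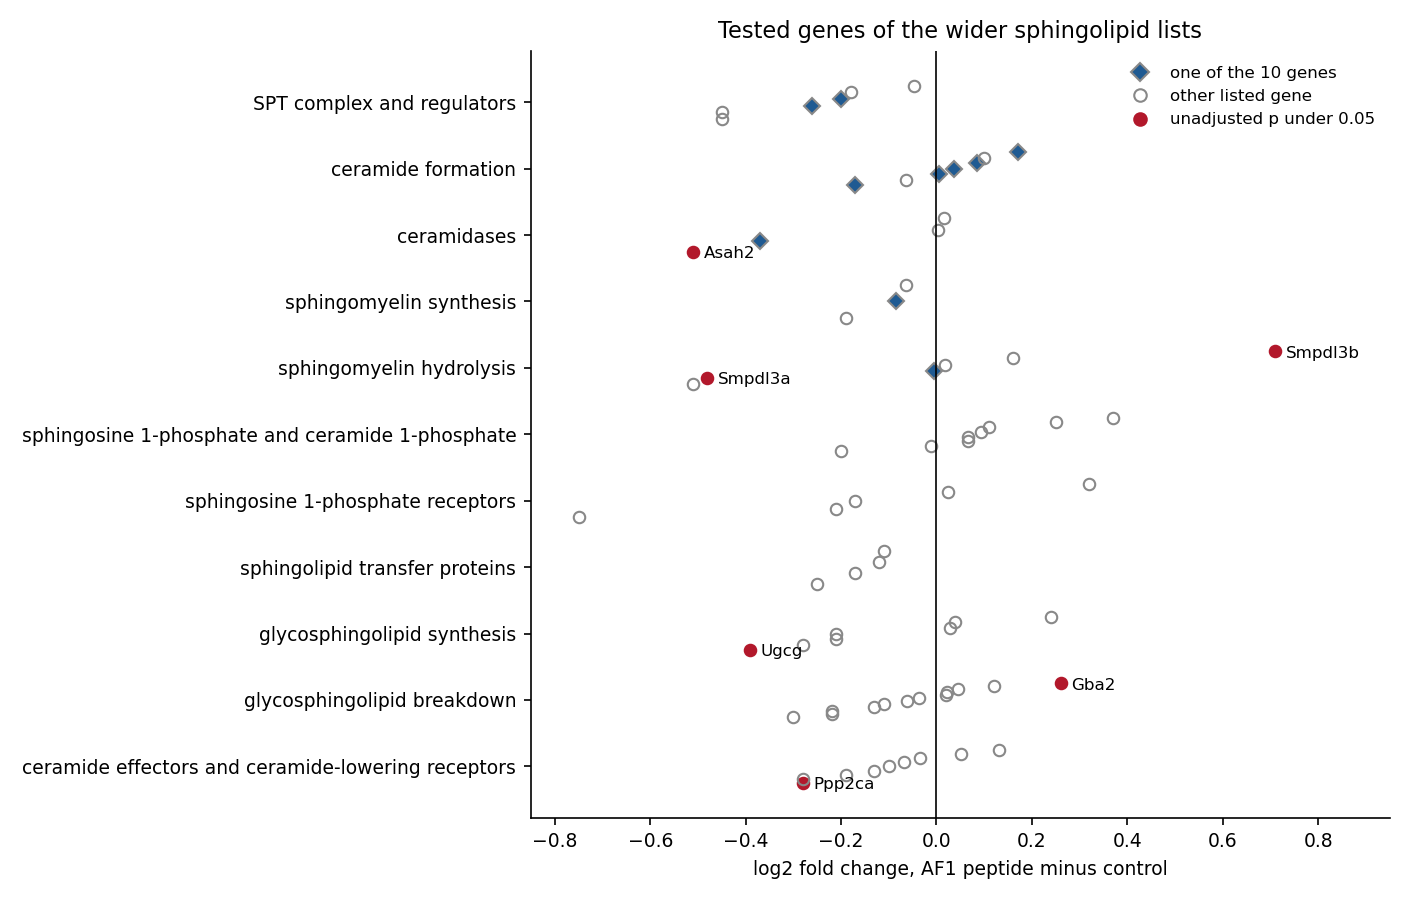
Log2 fold change of each tested gene of the 11 pathway lists (AF1 peptide minus control), 1 row per list, each point 1 gene and diamonds the 10 enzymes, with genes at an unadjusted p under 0.05 marked and named. The 6 marked genes are Asah2, Smpdl3a, Ugcg and Ppp2ca below 0 and Smpdl3b and Gba2 above 0.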

How the data were processed

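TRIzol was used to extract liver RNA of 8 mice, from which stranded mRNA libraries were prepared. The authors trimmed reads with Trim Galore 0.6.7, aligned with HISAT2, sorted with SAMtools 1.17 and obtained gene counts by GenomicAlignments, and the submitters' processing notes name the build mm39. They deposited a signal per gene and mouse, normalized counts, in which 100% of 172256 values were whole reads divided by 1 size factor per library (tolerance 0.01). The annotation, the use of strand and the normalization tool are not given in the sources used here. Groups came from the sample labels.

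limma 3.58.1 (R 4.3.3, variance following the intensity trend, two-sided) was run on log2(normalized count + 1) for the 15989 genes whose mean reached 10, with Benjamini-Hochberg adjustment over all of them. Fold changes on this scale understate changes of low genes. Genes were called at an unadjusted p under 0.05, and exact permutation tests of single values took the difference of log2 means over all splits of the 8 mice. p values set the difference between the groups against the spread between these mice. The main limma fit and the edgeR and DESeq2 fits were also run on simulated counts, and no outcome of that run is given here. It did not cover other scalings or left-out mice. Alternatives were pseudocounts of 0.5 and 5, no filter, at least 10 in every mouse, TMM scaling, equal totals with and without the 15 mitochondrial genes, no trend, each gene's own variance, a replicate block, edgeR 4.0.16 (quasi-likelihood) and DESeq2 1.42.0 on recovered reads, a 1.3-fold threshold, adjusted p, and each mouse left out. Lengths and overlaps came from GENCODE M21 (GRCm38), which holds 85.91% of the symbols. As its build is not that of the table, no coordinates are given. No 50-base word of Sptlc1, Sptlc2, Kdsr, Cers2, Cers5, Cers6, Asah1 or Sgms1 was shared with another gene, and 0.354% of those of Degs1 and 0.0888% of those of Smpd1 were.

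All 10 enzymes are named, with, from each list, the gene of smallest p and any called. The members and lists were chosen with earlier results of these data known. The marker lists of lymphocyte, endothelial, stellate, cholangiocyte, red blood cell, adipocyte and pancreas were also summed. Depth was 23031880 to 45117528 reads per mouse, and 0 columns were left out. Chi-square values of reads, compared within groups only, showed no replicate that repeated another of its group. Sptlc3, Sptssb, Cers1, Cers3, Acer1 and Enpp7 were not analysed here, and Fa2h, Sgpp2, Ugt8a and St8sia1 were below the filter. No sequence is printed, since the results concern RNA levels alone.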

Additional observations from a re-analysis of the deposited data

Results flagged for a closer look

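In 4 of 54 groups of 4 mice, the gap from 1 mouse to the next took up more of the group's range than Dixon's 95% critical value, and chance gives about 2.7 such groups. For 2 of the 10 enzymes that mouse was AF1 peptide replicate 1, the lowest of its group for Sptlc2 (gap 0.904 of the range) and the highest for Degs1 (0.868). The other genes were Cptp (0.931), a ceramide-1-phosphate transfer protein, and Ppp2ca (0.851), both with AF1 peptide replicate 3 as the lowest.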

How the results depend on the processing

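The median log2 fold change of the 10 enzymes (-0.044) was -0.14 with equal library totals and ran from -0.11 to 0.0066 as each mouse was left out, with the value above 0 coming without control replicate 1. Of the 10, 1 was called lower with equal totals (Sptlc2), and 0 to 2 when 1 mouse was left out. Signs turned for genes near 0: Cers2 (-0.0023 under TMM, -0.001 in edgeR, -0.087 with equal totals, -0.076 to 0.059 leaving out 1 mouse), Cers6 (-0.055) and Degs1 (-0.0065) with equal totals, Smpd1 in DESeq2 (0.0001), and, leaving out 1 mouse, Degs1 (-0.089 to 0.20), Sgms1 (-0.21 to 0.03), Smpd1 (-0.049 to 0.052) and Cers4 (-0.0098 to 0.24). The further pathway genes called higher (2) were 0 with equal totals, 1 without mitochondrial genes in the totals, 1 at 1.3-fold, 0 at adjusted p and 0 to 2 leaving out 1 mouse. Those called lower (4) were 9 with equal totals, 1 with each gene's own variance, 0 at adjusted p and 1 to 7 leaving out 1 mouse. Of all genes, 506 were called higher (129 with equal totals, 286 at 1.3-fold, 0 at adjusted p, 288 to 732 leaving out 1 mouse) and 484 lower (770, 304, 0, and 254 to 871); the lowest of these came without control replicate 2 and the highest without AF1 peptide replicate 1. Except where the alternative itself is a stricter rule or fewer mice, the cause was not tested.

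The labels name no pairing of mice by replicate number, and the study describes random assignment and unpaired tests of 2 groups. Same-numbered mice correlated at 0.235, 0.0238, 0.216 and -0.064 for replicates 1 to 4, in their deviations from the group means. Differently numbered mice ran from -0.272 to 0.137, so replicates 1 and 3 lay above that range and replicates 2 and 4 inside it. With the number as a block, 1 of the 10 enzymes was called lower (Asah1, -0.37), Smpdl3b was no longer called (0.71), Spns2 was called higher (0.25), and 647 genes were called lower and 597 higher. Cers5 rested on 41 to 149 reads per mouse, the fewest of the 10 enzymes, and S1pr4 on 5 to 21 and Smpdl3b on 12 to 35, so changes in these genes had to be larger to be detected.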

Other observations

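Levels per kb of exon, as means over 8 mice, differed between close relatives in the wider pathway. Ormdl3 stood at 1321 ± 161 (SD), against 46.5 ± 13 for Ormdl2 and 20.3 ± 6.36 for Ormdl1. Smpd2, a neutral sphingomyelinase, stood at 378 ± 16.6, above Smpd1 in every mouse by range (356 to 403 against 201 to 249). In the annotation 20.3% of the exon length of Smpd2 lies over Mical1 on the opposite strand, so its level is less certain. Cers4 was at 11.7 ± 2.47, below Cers5. The largest value in the lists described here was that of Psap, the precursor of the saposins that help lysosomal enzymes split sphingolipids, at 3994 ± 367.

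Genes called lower without AF1 peptide replicate 1 but not with it, named after their values were seen, were Ormdl1, Ormdl2, S1pr1 and Ppp2cb. S1pr1, a sphingosine 1-phosphate receptor, was 371.7, 259.0, 193.5 and 292.3 in controls and 415.3, 200.9, 170.5 and 214.9 in AF1 peptide mice, and its log2 fold change went from -0.21 to -0.48. Ppp2cb, the second catalytic subunit of protein phosphatase 2A, was 359.3, 417.5, 398.9 and 437.1 in controls and 522.6, 286.8, 325.4 and 319.6 in AF1 peptide mice, and went from -0.19 to -0.37.

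Summed normalized counts of other cell type markers overlapped between the groups. They were 5020 to 5744 in controls and 4452 to 5703 in AF1 peptide mice for sinusoidal endothelium, and 4729 to 6010 and 3921 to 6488 for stellate cells. Only 3 of the 7 stellate markers had a log2 fold change below 0, and Dcn alone was called, lower. Of all tested genes 3.03% were called lower. For cholangiocytes the sums were 1193 to 1799 and 803 to 2291, where AF1 peptide replicate 1 was the 803 and the others began at 1246. For lymphocytes they were 97 to 148 and 87 to 167, for red blood cells 34152 to 123402 and 27114 to 51930 (49148 to 51930 without replicate 1), for the single adipocyte marker found 17 to 90 and 5 to 49 (20 to 49 without replicate 1), and for the single pancreas marker found 193 to 250 and 181 to 221.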
